A study of Sus scrofa with 15 samples.

Results

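MII and ‘damaged’ oocytes are pig oocytes that shared the same in vitro maturation (IVM) and differ in whether a first polar body was seen at its end. The libraries titled MII and the libraries titled ‘damaged’ were taken for the comparison, 5 of each, which is 10 of the 15 libraries of the series. The other 5 libraries were made from oocytes at the germinal vesicle (GV) stage, taken from fresh follicles without culture. The oocytes came from sow ovaries of an abattoir and were matured inside their cumulus cells, for 44 h by the labels and for 42 to 44 h by the methods of the study, in a medium with gonadotrophins and epidermal growth factor. After hyaluronidase had removed the cumulus cells, an oocyte with a first polar body went to the MII group and an oocyte without one to the ‘damaged’ group. The name ‘damaged’ thus rests on a missing polar body under a stereomicroscope, and chromosomes were not scored. Each library pooled 15 oocytes, so oocytes at different points of meiosis within 1 pool could not be told apart. The study describes 5 independent collections, but the labels do not say which library came from which, and p-values measure the spread between these libraries.

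A fully grown oocyte rests in prophase of meiosis I and makes almost no new RNA once it resumes meiosis. Cyclin B with CDK1 then drives the breakdown of the germinal vesicle, a spindle forms and moves to the cortex, and the anaphase-promoting complex opens the way to anaphase I and the extrusion of the first polar body. The MOS kinase pathway and APC inhibition by FBXO43 hold the oocyte at metaphase II until fertilization. During the same hours, stored RNAs with short tails are lengthened and translated, and many others are deadenylated and removed, with BTG4 and the CCR4-NOT complex as central factors. The comparison asks whether oocytes that did not show a polar body differed from MII oocytes in the RNAs of this machinery, and, where no difference was called, how large a difference the data excluded.

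The estimated counts summed to 12.9 to 23.6 M per MII library and to 15.9 to 19.6 M per ‘damaged’ library. Mean totals were 17.4 M ± 4.16 (SD, n = 5) and 17.2 M ± 1.76 (SD, n = 5; exact permutation test, two-sided, p = 0.952). Genes with a count numbered 15050 to 15733 in MII and 15292 to 15579 in ‘damaged’ libraries (same test, p = 0.659, exact; the smallest p it allows is 0.00794). The deposited gene table disagreed with the transcript files in 7 of its 15 column names. Among the libraries compared here, MII replicates 1 and 2 stood there under the names of ‘damaged’ replicates 1 and 2. ‘Damaged’ replicates 1 and 2 stood under the names of GV replicates 2 and 3. The labels of the transcript files were used. By the share of counts in nuclear oxidative phosphorylation genes, ‘damaged’ replicates 1 and 2 (0.618 and 0.577%) were near matured libraries with agreeing names (0.487 to 0.590%). GV replicates 4 and 5, whose names agree, had 1.37 and 1.13%. GV replicates 1 and 2, which the gene table names MII, had 1.54 and 1.34%. These shares went with the transcript file names as GV or matured. Which names are right between MII and ‘damaged’ was not settled. The counts that lead were also taken without these 4 libraries. Oocyte markers were present in each library at 0.782 to 1.06% of the counts in MII and 0.905 to 0.990% in ‘damaged’ libraries, with all 18 markers that had a symbol tested. A list of markers of other cells held cumulus and granulosa genes and also stromal and blood cell genes, such as *DCN*, *COL1A2*, *HBB* and *PTPRC*. Of its 22 markers with a symbol, 7 passed the filter on low counts. *VCAN*, a matrix proteoglycan gene, took 681 to 817 CPM (counts of a gene per M counts of the library) in MII and 657 to 792 CPM in ‘damaged’ libraries. The other markers of this list together took 9.53 to 16.6 CPM in MII and 9.45 to 18.2 CPM in ‘damaged’ libraries. Among them, *CYP11A1*, *FSHR*, *HAS2* and *NR5A2* were at 0 in at least 1 library of each group. *AREG*, *BTC*, *EREG*, *PTGS2*, *SLC38A3* and *STAR* were above 0 in every library of both groups. All levels are relative to the library, so that less RNA per oocyte and an even loss of many RNAs cannot be told apart from no change. The cDNA was made with the SMART-Seq HT kit. The part of RNA tail length in the levels, and in rises or falls from GV, was not tested.

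No gene was called between ‘damaged’ and MII oocytes. Differentially expressed genes (DEGs) were those with a log2 fold change over 2 in either direction at an FDR under 0.01 in limma-voom, and 0 of 11217 genes tested (0%) passed, with FDRs from 0.999966 upwards. At an unadjusted p under 0.05 stood 189 genes (1.68%). By edgeR 0 genes passed with 199 at an unadjusted p under 0.05, and by DESeq2 0 genes with 201. The medians of the log2 differences of all genes lay within 0.04 of 0 in the fits with and without scaling factors. At transcript level, 0 of 17824 transcripts (0%) passed and 414 (2.32%) had an unadjusted p under 0.05 (limma).

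A missing call does not show that levels were alike, so the size of the difference was bounded for each gene. For the log2 difference, ‘damaged’ minus MII, a 95% interval was taken from the same fit, and its end farther from 0 is called the largest difference not excluded. In addition, a pair of one-sided tests asked whether the difference lay within 2-fold in either direction, with p-values adjusted over all genes (limma, adjusted p under 0.05). These tests correspond to a 90% interval, so a gene can pass while its 95% interval reaches slightly past 2-fold. Across all 11217 genes, a 2-fold difference was excluded for 10478 (93.4%). Genes with a mean of at least 10 CPM over the 10 libraries are called well measured. For 5682 of the 5711 well measured genes (99.5%) a 2-fold difference was excluded, and for 5138 of them (90.0%) a 1.5-fold difference. The interval of a well measured gene reached a median of 0.314 to either side of its difference on the log2 scale. With only the 6 libraries whose names agree between the files, a 2-fold difference was excluded for 5578 of the well measured genes and a 1.5-fold difference for 0. The interval of a well measured gene then reached a median of 0.449 to either side, and the count of 0 is by the adjusted p.

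The bound tightened with the level of the gene. In genes below 1 CPM, the median of the largest difference not excluded was 2.01-fold, and 66.4% of 1023 genes had a 2-fold difference excluded. It was 1.75-fold for the 2157 genes from 1 to 3 CPM and 1.51-fold for the 2326 genes from 3 to 10 CPM. In the well measured range it went from 1.37-fold at 10 to 30 CPM to 1.24-fold for the 139 genes of at least 1000 CPM. For many rare RNAs the libraries thus left 2-fold differences undecided.

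**Figure D1:**
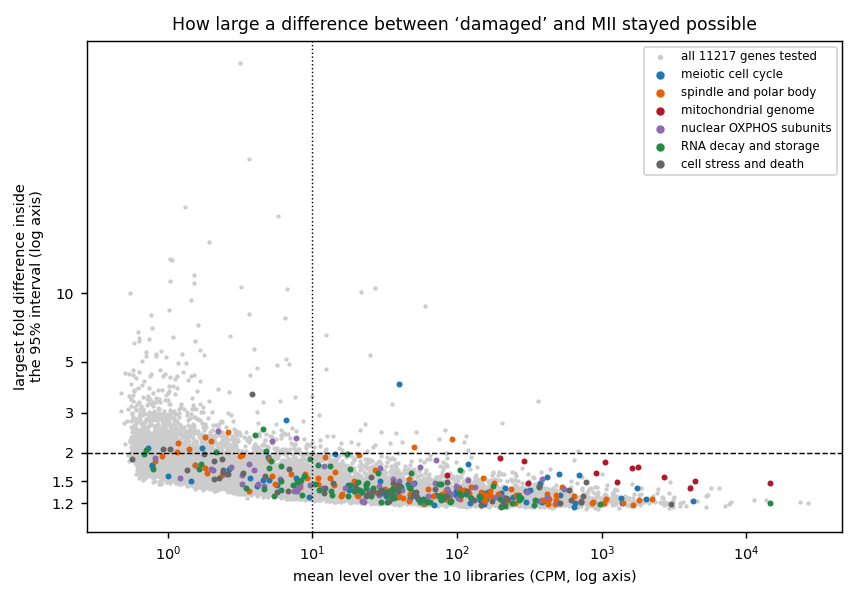
Each point is a gene, with its mean level over the 10 libraries in CPM on the log x axis and the largest fold difference inside its 95% interval on the log y axis; coloured points are members of the 6 gene lists, the dashed line is 2-fold and the dotted line is 10 CPM. Right of the dotted line most members lie between 1.2- and 1.5-fold, *UBE2S*, *SPC25* and *PFN1* lie above 2-fold, and genes of the mitochondrial genome lie higher than other genes of similar level.

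Members of 6 lists were then read out: genes of the meiotic cell cycle, of the spindle and polar body, of the mitochondrial genome, of nuclear oxidative phosphorylation (OXPHOS) subunits, of RNA decay and storage, and of cell stress and death. Of 477 listed symbols, 439 were found, 403 were tested and 301 were well measured. Among the 403 tested members, 5 (1.24%) had an unadjusted p under 0.05, against 1.68% of all genes. The 5 MII and the 5 ‘damaged’ libraries did not overlap for 0 of the 403 members, against 28 of 11217 genes (0.250%). Among the 301 well measured members, a 2-fold difference was excluded for 299 (99.3%) and a 1.5-fold difference for 262 (87.0%), beside 99.5% and 90.0% of all well measured genes. The exceptions at 2-fold were *UBE2S* and *SPC25*. With only the 6 libraries whose names agree, a 2-fold difference was excluded for 53 meiotic, 76 spindle, 12 mitochondrial genome, 45 OXPHOS, 68 decay and 37 stress genes, and a 1.5-fold difference for 0. For the 102 tested members below 10 CPM, a 2-fold difference was excluded for 92 (90.2%).

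Meiotic cell cycle genes were measured for 73 of 86 listed symbols, 56 of them well measured. For 55 of the 56 a 2-fold difference was excluded and for 50 a 1.5-fold difference, and the median log2 difference was -0.08, against -0.02 for all well measured genes. *CCNB1* (Chr 16: 47338239-47348385), which encodes the cyclin that activates CDK1, stood at 3833, 4851, 4664, 4658 and 4219 CPM in MII replicates 1 to 5. In ‘damaged’ replicates 1 to 5, it stood at 3684, 4420, 4433, 4497 and 3706 CPM. MII replicates 2, 3 and 4 lay above all ‘damaged’ libraries, and the other MII libraries within their range. Its log2 difference was -0.10 (95% interval -0.30 to 0.10), so the largest difference not excluded was 1.23-fold, against a log2 rise of 2.55 from GV to the matured libraries. *CDK1*, the kinase itself, had 16.4 to 29.3 CPM in MII and 16.3 to 20.5 CPM in ‘damaged’ oocytes, and its difference was bounded at 1.38-fold, beside a log2 change of -4.02 from GV.

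*MOS* (Chr 4: 75739402-75741076), the kinase at the top of the cytostatic pathway, had 356, 338, 609, 414 and 605 CPM in MII and 413, 384, 738, 515 and 696 CPM in ‘damaged’ replicates 1 to 5. Replicates 3 and 5 were the high libraries in each group. The log2 difference was 0.24 (95% interval -0.20 to 0.68), and 1.61-fold was the largest difference not excluded. *FBXO43*, which inhibits the anaphase-promoting complex, had 123 CPM ± 14.7 (SD, n = 5) in MII and 122 CPM ± 14.0 (SD, n = 5) in ‘damaged’ oocytes and was bounded at 1.2-fold. *WEE2*, the oocyte kinase that restrains CDK1, had 1495 to 2008 CPM in MII and 929 to 2161 CPM in ‘damaged’ oocytes. ‘Damaged’ replicate 1 was the low library, and the bound was 1.41-fold.

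*CDC20*, the activator of the anaphase-promoting complex, had 161, 221, 187, 189 and 204 CPM in MII and 187, 173, 230, 208 and 230 CPM in ‘damaged’ oocytes, with a bound of 1.27-fold. The groups overlapped. *BUB1B*, a spindle checkpoint kinase, and *SGO2*, the protector of centromeric cohesin, were bounded at 1.27- and 1.22-fold, with mean levels of 1389 and 734 CPM in MII and 1320 and 697 CPM in ‘damaged’ oocytes. *PLK1*, a kinase of spindle assembly and mitotic exit, varied more among libraries, with 19.2 to 44.6 CPM in MII and 20.4 to 36.8 CPM in ‘damaged’ oocytes, and was bounded at 1.5-fold. The narrowest intervals of the well measured meiotic genes belonged to *SMC1B* and *SMC3*, of the cohesin ring, from -0.27 to 0.12 on the log2 scale for each. The smallest bounds were those of *PRKAR1A*, the regulatory subunit through which cAMP controls protein kinase A, and *PDS5B*, a cohesin factor, at 1.16- and 1.18-fold.

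*UBE2S*, which extends ubiquitin chains on substrates of the anaphase-promoting complex, had the widest interval of the well measured meiotic genes. It had 30.5, 56.1, 4.92, 38.5 and 20.9 CPM in MII and 38.5, 38.9, 10.1, 66.7 and 90.1 CPM in ‘damaged’ replicates 1 to 5. Replicate 3 was the lowest library of each group. The log2 difference was 0.73 (95% interval -0.54 to 2.0), and a difference of up to 4.01-fold was not excluded. *PPP2R1A*, the scaffold of protein phosphatase 2A, came next with an interval from -0.17 to 0.99 and a bound of 1.98-fold, and without MII replicate 3 or 5 or ‘damaged’ replicate 2 the adjusted p of its 2-fold test was 0.0582 to 0.0688 (limma). At an unadjusted p under 0.05 stood *TTK*, *CDC25B* and *CDCA5*, all with an FDR of 1.00 in limma. *TTK*, the checkpoint kinase also named MPS1, had 119, 158, 171, 129 and 105 CPM in MII and 95.6, 153, 85.4, 84.9 and 84.5 CPM in ‘damaged’ oocytes. The groups overlapped through ‘damaged’ replicate 2, and the log2 difference was -0.46 (95% interval -0.83 to -0.08). *CDC25B*, the phosphatase that activates CDK1, was below 10 CPM on average, with 2.45 to 7.13 CPM in MII and 4.42 to 14.3 CPM in ‘damaged’ oocytes (log2 difference 0.84, 95% interval 0.20 to 1.48). For *CDCA5*, or sororin, which stabilizes cohesin, these ranges were 2.73 to 4.86 and 4.25 to 6.61 CPM.

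**Figure D2:**
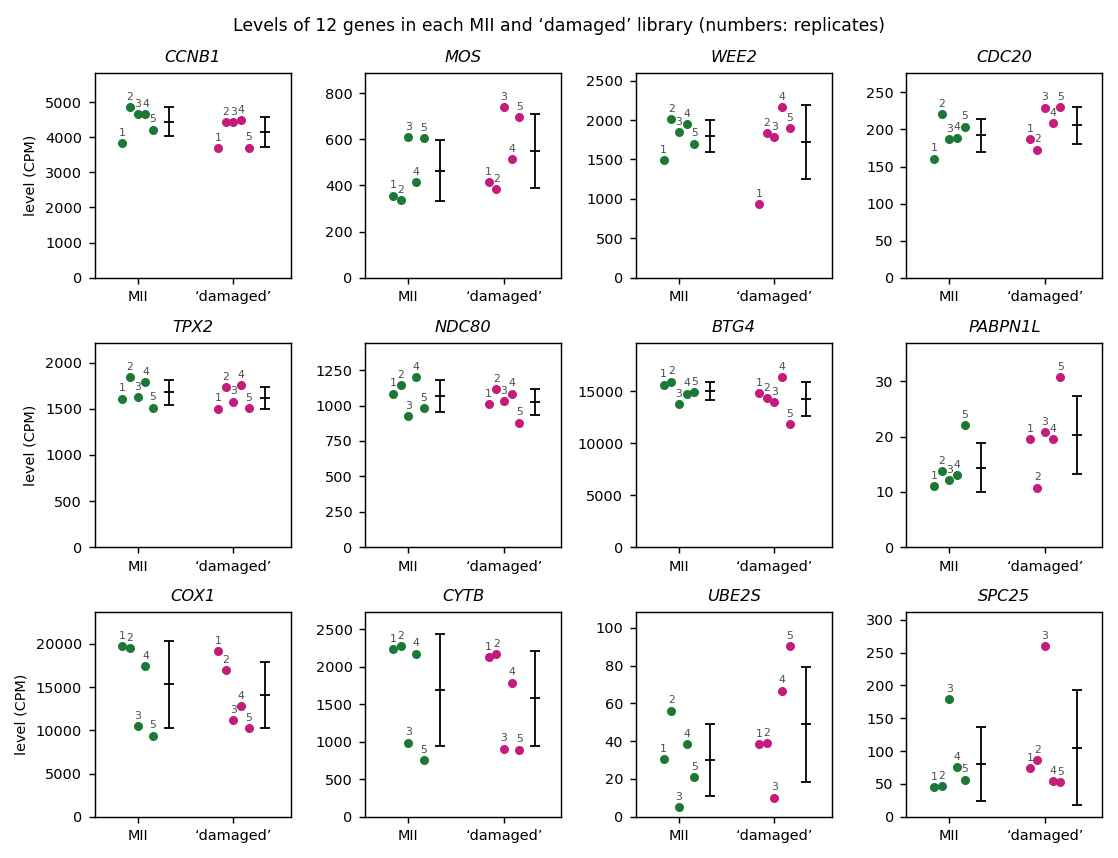
Level in CPM (y axis, from 0) of 12 genes in each MII and each ‘damaged’ library, labelled with the replicate number; the black bars give mean ± SD (n = 5). The ranges of both groups overlap in each panel, *COX1* and *CYTB* are low in replicates 3 and 5 of both groups, and *SPC25* is high in replicate 3 of both.

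Spindle and polar body genes were measured for 101 of 114 listed symbols, 79 of them well measured. Of the 79, 78 had a 2-fold difference excluded and 69 a 1.5-fold difference, the median log2 difference was -0.05, and 0 of the 101 had an unadjusted p under 0.05. *TPX2* (Chr 17: 35431271-35484814), which nucleates spindle microtubules around chromatin, had 1611, 1847, 1628, 1789 and 1513 CPM in MII and 1504, 1733, 1579, 1761 and 1509 CPM in ‘damaged’ replicates 1 to 5. The groups covered almost the same range. Its log2 difference was -0.05 (95% interval -0.24 to 0.14), with the smallest bound of the list, 1.18-fold, beside a log2 rise of 2.26 from GV. *KIF23*, a kinesin of the central spindle, had the narrowest interval, from -0.26 to 0.11, and *RDX*, a linker of membrane and cortical actin, was bounded at 1.19-fold.

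*NDC80*, the kinetochore protein that binds microtubules, had 924 to 1202 CPM in MII and 880 to 1116 CPM in ‘damaged’ oocytes and was bounded at 1.21-fold. *KIF11*, the motor that pushes spindle poles apart, had 56.5 to 76.9 CPM in MII and 57.5 to 74.5 CPM in ‘damaged’ oocytes and was bounded at 1.29-fold. Among genes of the cortex and of cytokinesis, *ANLN*, or anillin, of the contractile ring was bounded at 1.36-fold. *FMN2*, the formin that nucleates the actin needed to move the meiotic spindle, had 12.8 to 17.9 CPM in MII and 14.0 to 18.1 CPM in ‘damaged’ oocytes and was bounded at 1.29-fold. *INCENP*, the scaffold of the chromosomal passenger complex, had 9.84, 12.6, 13.0, 11.6 and 12.4 CPM in MII and 13.1, 12.5, 12.5, 16.04 and 19.8 CPM in ‘damaged’ oocytes. Its log2 difference of 0.29 had a 95% interval from -0.05 to 0.64 and an unadjusted p of 0.09 (limma).

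*SPC25*, a subunit of the same kinetochore complex as NDC80, was not bounded within 2-fold in the main fit. It had 44.8, 46.7, 179, 75.3 and 56.6 CPM in MII and 73.7, 85.7, 259, 54.7 and 52.3 CPM in ‘damaged’ replicates 1 to 5. Replicate 3 stood far above the others in each group. The log2 difference was 0.31 (95% interval -0.58 to 1.2) and 2.30-fold was not excluded. The adjusted p of its 2-fold test was 0.0638 (limma), and it was 0.0426, 0.0468 and 0.00844 without MII replicate 1, MII replicate 2 and ‘damaged’ replicate 3. With a replicate block it was 0.00117, and with library weights 0.0297 (limma), so the exception depended on the fit. *PFN1*, or profilin, which feeds actin monomers to formins, had 20.8 to 69.7 CPM in MII and 31.5 to 106 CPM in ‘damaged’ oocytes. It passed the 2-fold test with an adjusted p of 0.0437, while its 95% interval reached 2.13-fold. This adjusted p was 0.0785 to 0.118 without MII replicate 3 or 5 or ‘damaged’ replicate 2, 4 or 5, and 0.0529 to 0.0885 without scaling factors, with another filter, with 5 GV libraries in the fit or by DESeq2. The widest interval of the list was that of *CDK5RAP2*, a centrosome gene, with 21.1, 7.78, 24.2, 11.6 and 41.8 CPM in MII and 11.9, 13.6, 9.27, 28.8 and 38.8 CPM in ‘damaged’ oocytes. Its log2 difference was -0.03 (95% interval -0.97 to 0.90), and the adjusted p of its 2-fold test, 0.0245 (limma), was 0.0605 to 0.0732 without MII replicate 2, 4 or 5 or ‘damaged’ replicate 4 or 5.

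**Figure D3:**
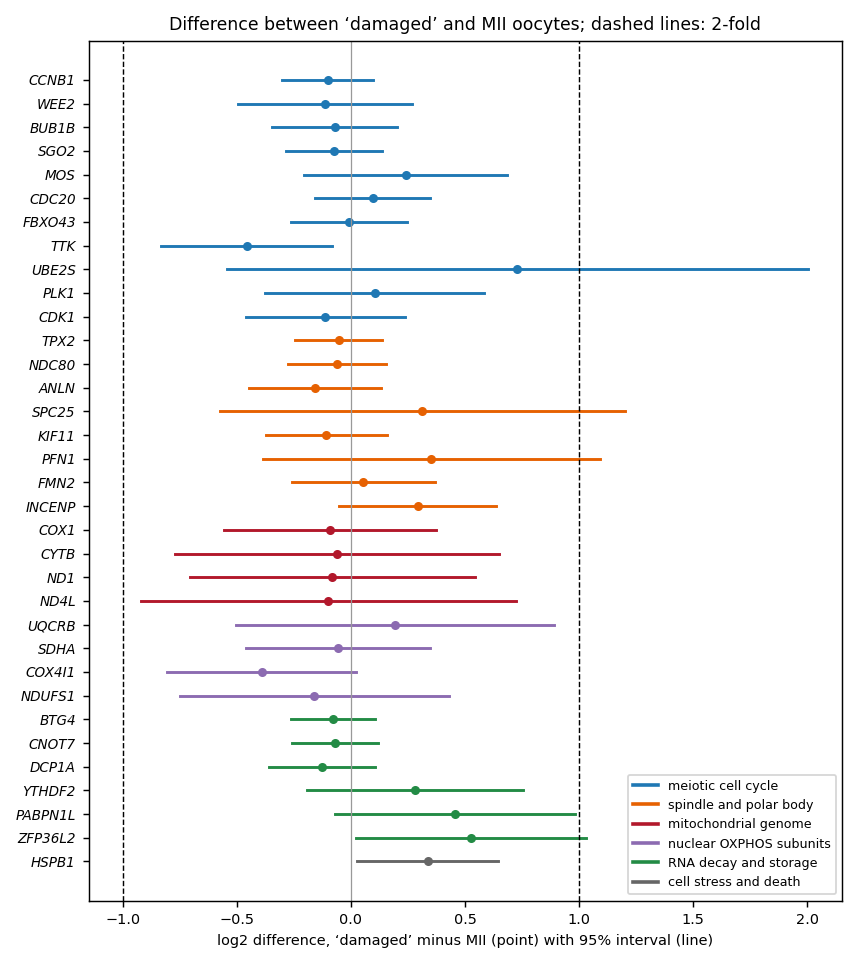
Log2 difference, ‘damaged’ minus MII, with its 95% interval on the x axis for genes of the 6 lists (colours), ordered by level within each list; dashed lines mark 2-fold in either direction. Except for *UBE2S*, *SPC25*, *PFN1* and *ZFP36L2*, the intervals drawn lie between the dashed lines, and the intervals of *BTG4*, *CNOT7* and *TPX2* are the narrowest.

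The 13 protein-coding genes of the mitochondrial genome were all well measured, and they share transcription units, so they are not independent of each other. All 13 had a 2-fold difference excluded, and 5 of 13 a 1.5-fold difference, *ND2*, *COX1*, *ATP8*, *ATP6* and *COX3*. With any 1 library left out, the latter count was 0 to 2, and *ND4L* missed the 2-fold test without MII replicate 5 or ‘damaged’ replicate 1 or 2, with adjusted p-values of 0.05 to 0.0598. Together they took 4.49, 4.203, 2.35, 3.92 and 1.98% of the counts in MII and 4.24, 3.995, 2.33, 3.02 and 2.55% in ‘damaged’ replicates 1 to 5. Replicates 3 and 5 were the low libraries in both groups, and the ranges of the groups overlapped. The median SD of log2 CPM over the 13 genes was 0.680 among MII and 0.501 among ‘damaged’ libraries, against 0.218 and 0.221 over all well measured genes.

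*COX1* (MT: 6511-8055), the catalytic subunit of complex IV, had 19706, 19478, 10508, 17434 and 9378 CPM in MII and 19199, 16934, 11189, 12798 and 10282 CPM in ‘damaged’ oocytes. Its log2 difference was -0.09 (95% interval -0.56 to 0.37), with a bound of 1.47-fold. *CYTB*, the cytochrome b of complex III, had 2235, 2269, 987, 2172 and 758 CPM in MII and 2128, 2170, 908, 1786 and 894 CPM in ‘damaged’ oocytes, with a bound of 1.71-fold. *ND1* of complex I was bounded at 1.63-fold. *COX3* had the narrowest interval, from -0.49 to 0.43, and *ND4L* the widest, from -0.92 to 0.72. The largest bounds were those of *ND6* and *ND4L* at 1.84- and 1.89-fold. The log2 differences of the 13 genes ran from -0.19 for *ND5* to 0.14 for *ND3*, and 1 of the 13 was above 0.

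**Figure D4:**
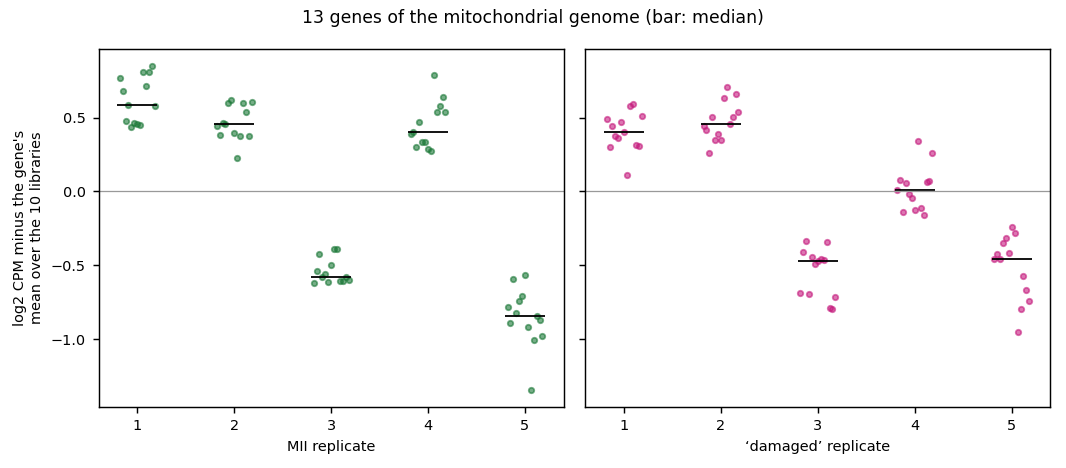
For each of the 13 mitochondrial genes (points), the y axis gives log2 CPM minus that gene's mean over the 10 libraries, by replicate of MII (left) and ‘damaged’ (right); bars are medians over the genes. The genes move together within a library, and replicates 3 and 5 lie below 0 in both groups.

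Nuclear OXPHOS subunits were measured for 67 of 80 listed symbols, 45 of them well measured. For 45 of 45 a 2-fold difference was excluded and for 38 a 1.5-fold difference, the median log2 difference was -0.01, and 0 of the 67 had an unadjusted p under 0.05. Their share of the counts was 0.481 to 0.590% in MII and 0.487 to 0.618% in ‘damaged’ oocytes, against 1.13 to 1.54% in the GV libraries used. *SDHA*, the flavoprotein of complex II, had 28.3, 22.8, 23.0, 15.99 and 18.8 CPM in MII and 15.8, 17.4, 18.4, 23.4 and 28.8 CPM in ‘damaged’ oocytes, with a bound of 1.37-fold. *NDUFS1*, the large iron-sulfur subunit of complex I, was at 2.21 CPM ± 0.870 (SD, n = 5) in MII and 1.91 CPM ± 0.450 (SD, n = 5) in ‘damaged’ oocytes. At this level the bound was 1.68-fold, beside a log2 change of -3.52 from GV. The narrowest intervals were those of *COX8A* of complex IV, from -0.23 to 0.19, and *SDHB* of complex II, from -0.19 to 0.26, and *COX8A* and *ATP5MC3*, of ATP synthase, had the smallest bounds at 1.17- and 1.18-fold. *COX4I1* of complex IV had a log2 difference of -0.39 (95% interval -0.81 to 0.02). The widest intervals were those of *ATP5PF* of ATP synthase, from -0.62 to 0.78, and *UQCRB* of complex III, from -0.51 to 0.89. *UQCRB* had 139 and 143 CPM in replicate 3 of MII and ‘damaged’, against 40.9 to 76.1 CPM in the other libraries.

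RNA decay and storage genes were measured for 94 of 108 listed symbols, 71 of them well measured. Each of the 71 had a 2-fold difference excluded and 64 a 1.5-fold difference, with a median log2 difference of -0.04. *BTG4* (Chr 9: 39253116-39281327), the adaptor that brings the CCR4-NOT deadenylase to maternal mRNAs, had 15634, 15910, 13736, 14763 and 14924 CPM in MII and 14840, 14315, 13949, 16379 and 11811 CPM in ‘damaged’ replicates 1 to 5. The lowest and the highest library were both ‘damaged’ libraries. The log2 difference was -0.08 (95% interval -0.26 to 0.11) and the bound 1.2-fold, beside a log2 rise of 2.88 from GV. *CNOT7*, a catalytic deadenylase of that complex, had 930 to 1085 CPM in MII and 859 to 1018 CPM in ‘damaged’ oocytes and the same bound of 1.2-fold.

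*DCP1A*, a cofactor of mRNA decapping, was bounded at 1.28-fold, and *UPF3B* and *SMG1* of nonsense-mediated decay had the smallest bounds of the list at 1.16- and 1.17-fold. *BTG4* and *CNOT7* had its narrowest intervals. *YTHDF2*, a reader of methylated adenosine, had 97.6, 118, 43.8, 119 and 110 CPM in MII and 112, 103, 130, 98.2 and 121 CPM in ‘damaged’ oocytes. MII replicate 3 was the low library, and the bound was 1.69-fold. *PABPN1L*, an oocyte poly(A)-binding protein gene, had 11, 13.8, 12.2, 13.1 and 22.1 CPM in MII and 19.6, 10.8, 20.8, 19.6 and 30.8 CPM in ‘damaged’ oocytes. Its log2 difference of 0.46 had a 95% interval from -0.07 to 0.98 and a bound of 1.98-fold, and the adjusted p of its 2-fold test, 0.0247 (limma), was 0.0782 without MII replicate 5 and 0.0655 without ‘damaged’ replicate 2. The widest intervals were those of *LSM4*, of the ring that binds deadenylated RNA, from -0.83 to 0.52, and *PNLDC1*, a 3′ exonuclease gene, from -0.40 to 0.70. *ZFP36L2*, which targets AU-rich mRNAs for decay, was below 10 CPM, with 4.31, 3.20, 4.90, 2.60 and 4.72 CPM in MII and 5.80, 4.98, 3.72, 5.88 and 7.85 CPM in ‘damaged’ oocytes. It was the only member of this list with an unadjusted p under 0.05 (unadjusted p = 0.0423, FDR 1.00 by limma), and its log2 difference of 0.53 had a 95% interval from 0.02 to 1.03. The adjusted p of its 2-fold test was 0.057 to 0.0863 without any 1 of MII replicates 1, 3 and 5 and ‘damaged’ replicates 2 and 3 (limma).

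Cell stress and death genes were measured for 55 of 76 listed symbols, 37 of them well measured. All 37 had a 2-fold difference excluded, and 36 a 1.5-fold difference. The exception at 1.5-fold was *HSPB1*, a small heat shock protein gene, with 19.2, 21.3, 20.9, 21.4 and 30.01 CPM in MII and 28.0, 23.3, 28.3, 31.1 and 31.3 CPM in ‘damaged’ oocytes. The groups overlapped through MII replicate 5. Its log2 difference was 0.34 (95% interval 0.03 to 0.65, unadjusted p = 0.0356, FDR 1.00, limma), with a bound of 1.57-fold. *GCLC*, which starts glutathione synthesis, was bounded at 1.48-fold, with 73.5 to 125 CPM in MII and 69.2 to 81.8 CPM in ‘damaged’ oocytes. *ATM*, the kinase of the DNA damage response, and *DNAJA1*, a co-chaperone, were bounded at 1.18- and 1.2-fold and had the narrowest intervals. *PRDX2*, a peroxiredoxin gene, had the widest, from -0.54 to 0.57, with 459 to 918 CPM in MII and 353 to 1146 CPM in ‘damaged’ oocytes, followed by *DNAJB1*, another co-chaperone gene, from -0.42 to 0.55.

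The change from GV to matured oocytes gave a scale for these bounds. Between the 10 matured libraries and GV replicates 1, 2, 4 and 5, 565 genes rose and 2208 fell at the same DEG thresholds (limma). Of the 461 risen genes that were well measured here, 460 had a 2-fold difference between ‘damaged’ and MII excluded, beside 99.5% of all 5711 well measured genes. For 426 of the 461 the largest difference not excluded was under 0.25 times their rise on the log2 scale. Of the 1144 fallen genes tested here, 984 had a 2-fold difference excluded, a smaller share than the 93.4% of all 11217 genes tested. The 151 of them that were well measured are those still at 10 CPM or more after the fall, of which 150 had a 2-fold difference excluded, and for 122 the bound was under 0.25 times the fall. Both comparisons use the same matured libraries. The median bound of all well measured genes was 0.4 on the log2 scale, and a DEG had to change by over 2. Most genes would thus come under 0.25 times such a change, so these counts are no result about the risen or fallen genes. Of all 5711 well measured genes, 461 rose and 151 fell. In the meiotic list 10 well measured genes rose and 2 fell, in the spindle list 15 rose and 3 fell, in the decay list 3 rose and 3 fell, in the stress list 3 rose and 1 fell, among OXPHOS subunits 0 rose and 5 fell, and in the mitochondrial genome 0 changed.

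Each library was then placed between GV and matured oocytes, with the mean of the 4 GV libraries at 0 and the mean of the 10 matured libraries at 1 for each of these genes. Over the fallen genes, MII replicates 1 to 5 had mean positions of 1.007, 1.045, 0.960, 1.069 and 0.973, and ‘damaged’ replicates 1 to 5 had 0.976, 1.042, 1.008, 0.982 and 0.938. Over the risen genes, the MII positions were 0.996, 1.043, 0.975, 1.062 and 0.984 and the ‘damaged’ positions 0.990, 1.023, 0.999, 1.008 and 0.918. ‘Damaged’ replicate 5 was the lowest library on both scales and MII replicate 4 the highest, and the groups overlapped. ‘Damaged’ minus MII, the means differed by -0.0217 over the fallen and by -0.0243 over the risen genes, less than the SD within a group of 0.0387 to 0.0463 and 0.0383 to 0.0408. The lowest position of the 10 matured libraries was 0.918. The scale sets their mean at 1, over genes chosen on these same libraries, so positions near 1 are largely built in. Only differences among the matured libraries can be read from it.

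**Figure D5:**
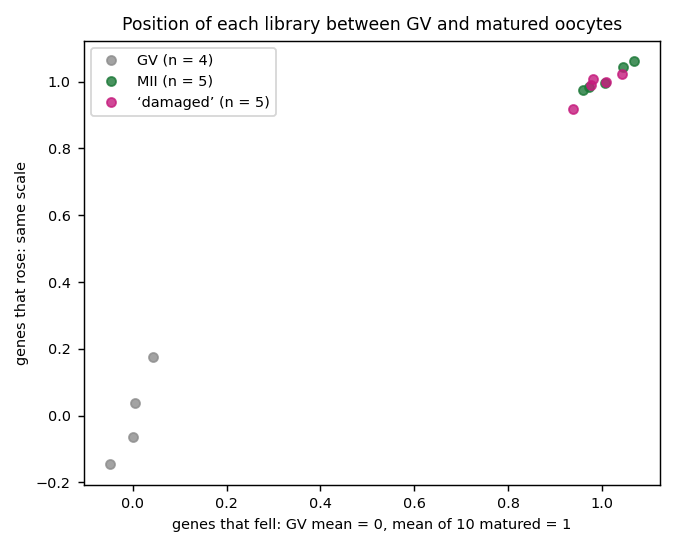
Position of each library on the scale from GV (0) to matured (1), over genes that fell (x axis) and genes that rose (y axis) during maturation. The 5 MII and 5 ‘damaged’ libraries form 1 group between 0.918 and 1.069 on both axes, and the 4 GV libraries lie near 0.

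The spread among libraries was alike in size. The median SD of log2 CPM over well measured genes was 0.218 in MII and 0.221 in ‘damaged’ oocytes, and the SD was larger in ‘damaged’ oocytes for 51.7% of the 5711 genes. Of the genes with a symbol, those with the smallest p were *LYRM9*, *NME1*, *FURIN*, *BTC* and *GSN*, all below 10 CPM and all with an FDR of 1.00 (limma). *LYRM9*, a gene of the mitochondrial LYR family, had 2.48, 2.16, 2.17, 1.44 and 1.93 CPM in MII and 0.533, 0.957, 0.718, 0.737 and 1.59 CPM in ‘damaged’ oocytes (log2 difference -1.19, 95% interval -1.80 to -0.57, unadjusted p = 0.000925). Only *FURIN*, a proprotein convertase, had groups that did not overlap among these 5, with 1.58 to 2.61 CPM in MII and 3.03 to 4.14 CPM in ‘damaged’ oocytes. *NME1*, a nucleoside diphosphate kinase, and *BTC*, or betacellulin, which stands on the list of markers of other cells, had negative differences of -1.35 and -1.51. For *GSN*, or gelsolin, which severs actin, it was 1.03.

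Isoform usage was read from the share of each transcript in the TPM of its gene. Of 10751 isoforms of 4344 genes, 1 (0.00930%) passed an FDR under 0.01 with an absolute difference in isoform fraction (dIF) over 0.1 in the DEXSeq model, while 480 (4.46%) had an unadjusted p under 0.05. It was ENSSSCT00000089435 of *DTNBP1* (Chr 7: 11602470-11720156), which encodes dysbindin of the lysosome-related organelle complex BLOC-1. The study had named *DTNBP1* and *RAB4B* from these libraries, so their values are a description. It reports lower usage in its comparison of MII with ‘damaged’ oocytes, in the longest isoform of each gene. It proposes that less use of the predominant isoforms impairs maturation. Here the isoform of each gene with the smallest FDR had a higher share in ‘damaged’ than in MII libraries. ENSSSCT00000089435 had an effective length of 1116, against 1200 for ENSSSCT00000001157. The latter had a mean share of 86.6% in MII and 77.0% in ‘damaged’ oocytes (FDR 0.483, DEXSeq model). ENSSSCT00000089435 was listed at 0 in all 5 MII libraries, where 3 counts of the gene would be a share of 1.52 to 3.33%. In ‘damaged’ replicates 1 to 5, its share was 2.79, 10.3, 8.83, 16.2 and 13.9%, from 2.89, 14.3, 12.8, 25.4 and 22.3 estimated counts. In the 4 GV libraries it had a share of 30.4 to 44.0%. The dIF was 0.104, close to the threshold, with an FDR of 5.87e-06. With 0 in MII, it passed the filter of a mean fraction over 0.05 only through the ‘damaged’ libraries, so its testing depended on that group. Without ‘damaged’ replicate 2, 3, 4 or 5, its mean share was too low to be tested. When isoforms of any fraction were tested, its FDR was 6.35e-07 (DEXSeq model). With only the libraries whose names agree, the dIF was 0.130, and 26 isoforms passed in all. The level of the gene was 8.36 CPM ± 1.62 (SD, n = 5) in MII and 8.16 CPM ± 1.08 (SD, n = 5) in ‘damaged’ oocytes, bounded at 1.32-fold.

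For *RAB4B* (Chr 6: 48989080-49010042), a small GTPase of endosome recycling, the isoform ENSSSCT00000092988 was also listed at 0 in all 5 MII libraries. The gene had 13.1 to 20 estimated counts there, so 3 counts would be a share of 15.0 to 22.9%. In ‘damaged’ replicates 1 to 5 the isoform had a share of 88.8, 79.5, 21.3, 37.7 and 49.4%, from 7.42 to 11.5 estimated counts. It too passed the fraction filter only through these libraries. Its effective length was 950, against 1474 for ENSSSCT00000003328 of the same gene. In the GV libraries used, its share was 8.64 to 74.3%. The dIF was 0.553 with an FDR of 0.0228, which did not pass 0.01, and it was 0.00784 to 0.111 with 1 library left out, the lowest without ‘damaged’ replicate 3. It was 0.00242 when isoforms of any fraction were tested and 0.485, with a dIF of 0.361, with only the libraries whose names agree. Shares of 0 and their limits cover counting error only, and counts split among isoforms of 1 gene are estimates from reads that the isoforms share.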

How the data were processed

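RNA of 15 pig oocyte libraries was sequenced, and 10 libraries (5 MII, 5 ‘damaged’) were compared. The authors trimmed reads with AfterQC and quantified 46369 Ensembl transcripts of Sscrofa11.1 with kallisto 0.43, and they deposited estimated counts, TPM and effective lengths per transcript, none normalized between libraries. Their deposited gene table holds estimated counts from tximport, scaled from TPM and length.

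Of the 15 gene table columns, 8 had the total of the library they name and 7 that of another library. These 7 were not used. The transcripts of 16966 genes were found by matching sums of neighbouring transcripts to the 8 columns (99.96% or more of each library's counts), and the same formula then gave gene counts for every library. This was checked on made-up genes. The tests were run on counts simulated without shared replicate effects or libraries far from the others, so bounds under such effects were not checked. The largest deviation from a deposited count of at least 10 was 4.34e-08%. Symbols (13411 genes) came from the gene name table and positions from RefSeq on Sscrofa11.1. *AURKA* and *ATP5F1B* were not matched by symbol and were not analysed here.

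Genes and transcripts were tested with limma 3.58.1 (voom) after filterByExpr and TMM factors of edgeR 4.0.16 in R 4.3.3. The model of DEXSeq was fitted to rounded counts in DESeq2 1.42.0 (mean gene TPM over 1, mean isoform fraction over 0.05). Total counts and genes with a count were compared by exact permutation. CPM values are scaled by TMM, except those of *VCAN* and the other cell markers, which are counts per M counts of the library. The study used 4 GV libraries, and GV replicate 3, the shallowest with 6.40 M counts, was left out of the GV means, a choice made with earlier results of these data known. p-values were adjusted by Benjamini-Hochberg over all features tested. Matching and figures used Python 3.11.15.

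The members and lists were chosen with earlier results of these data known. Named genes were a fixed set of 28 symbols, *RAB4B* and *DTNBP1*, in each list the 2 well measured genes with the narrowest and the 2 with the widest interval and members with an unadjusted p under 0.05, and the 5 genes with a symbol and the smallest p. The 2 genes of each list with the smallest and the 2 with the largest bound were added after values were seen. Mitochondrial genes, TPM shares per isoform and list sums are given as values. Alternatives were other scaling and filters, GV libraries in the fit, a replicate block, library weights, summed counts, edgeR, DESeq2, single libraries left out, and both readings of the disputed names. The 1.5-fold bound was added after the data had been seen. Totals of 12.9 to 23.6 M counts and 5 libraries per group set the precision.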

Additional observations from a re-analysis of the deposited data

Results flagged for a closer look

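Among 156 groups of 5 libraries looked at (named genes and library sums), 14 had a library far from the other 4 by Dixon's test, which flags about 1 in 20 groups by chance. In MII replicate 3, *SPC25* was at 179 CPM against 44.8 to 75.3 CPM in the other MII libraries, *UQCRB* at 139 against 41.4 to 58.1 CPM, *YTHDF2* at 43.8 against 97.6 to 119 CPM, *ATP5MC3* at 176 against 216 to 219 CPM, *DNAJB1* at 54.6 against 27.8 to 34.2 CPM and *DTNBP1* at 5.58 against 8.68 to 9.85 CPM. *SPC25* was also far above the others in ‘damaged’ replicate 3, with 259 CPM against 52.3 to 85.7 CPM. MII replicate 5 stood apart for *KIF11* (56.5 CPM, others 71.9 to 76.9), *PABPN1L* (22.1 CPM, others 11 to 13.8) and *HSPB1* (30.01 CPM, others 19.2 to 21.4). *TTK* was at 153 CPM in ‘damaged’ replicate 2 and at 84.5 to 95.6 CPM in the other ‘damaged’ libraries, and *SMC1B* at 1204 CPM in ‘damaged’ replicate 5 and at 1360 to 1400 CPM in the others. *RDX* was at 437 CPM in MII replicate 4 against 487 to 501 CPM, and *GSN* at 1.39 CPM in MII replicate 2 against 0.747 to 0.908 CPM.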

How the results depend on the processing

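No gene was called under any of the 23 alternatives run, and the count of well measured genes with a 2-fold difference excluded lay between 5657 and 5679 with 1 library left out. By the column names of the gene table, 2 GV libraries count as MII, MII replicates 1 and 2 as ‘damaged’, and ‘damaged’ replicates 1 and 2 as GV. The OXPHOS shares of these libraries went with the transcript file names as GV or matured, so this reading places GV-like libraries in the MII group. Under the column names, a 2-fold difference was excluded for 4531 genes and 2886 well measured genes. In the lists it was excluded for 21 meiotic, 28 spindle, 0 mitochondrial genome, 18 OXPHOS, 43 decay and 19 stress genes. A 1.5-fold difference was excluded for 0 in all well measured genes and in each list. With only libraries whose names agree, a 1.5-fold difference was excluded for 0 well measured genes and 0 in each list. A filter of 10 CPM in 5 libraries left 5664 genes with a 2-fold difference excluded, because fewer genes were tested. The 1.5-fold count of the mitochondrial genome was 2 without a filter, 3 by DESeq2, 0 with 5 GV libraries in the fit, and 0 to 2 with 1 library left out. With 5 GV libraries it was 25 for OXPHOS and 22 for stress genes. Without a filter 1 transcript passed. Isoforms that passed numbered 2 at any isoform fraction, 26 with agreeing names, 0 by the gene table names, and 1 to 8 with 1 library left out. The causes of these changes were not tested. The replicate block gave 0 genes, 265 with an unadjusted p under 0.05, 10662 genes with a 2-fold difference excluded, 13 of 13 mitochondrial genes with a 1.5-fold difference excluded and 12 isoforms. Libraries with the same number correlated in their deviations from the group means over well measured genes at 0.31, 0.13, 0.43, 0.04 and 0.05 (replicates 1 to 5). Pairs with different numbers ran from -0.5 to 0.66. The criterion of over 0.1 in every pair was not met, and the main fit was unpaired. Whether equal numbers mark a shared collection is not given by the labels, and its part in the bounds was not tested. Over the named genes and all alternatives, 1341 results kept their side of the 2-fold test, 91 no longer passed it and 8 newly passed it. The position differences moved by less than the spread within a group. Bounds were wider for genes at lower levels; the part of depth in this was not tested.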

Other observations

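Of the 5711 well measured genes, 29 did not have a 2-fold difference excluded. With the highest mean levels among them, *COPRS* had 336 CPM ± 204 (SD, n = 5) in MII and 389 CPM ± 171 (SD, n = 5) in ‘damaged’ oocytes, with a 95% interval of the log2 difference from -0.83 to 1.75, and *UBFD1* had 174 CPM ± 82.6 (SD, n = 5) and 234 CPM ± 114 (SD, n = 5). *ZFAND2A*, a stress-induced zinc finger gene, had 59.4 CPM ± 14.9 (SD, n = 5) in MII and 105 CPM ± 44.5 (SD, n = 5) in ‘damaged’ oocytes, with an interval from 0.17 to 1.33. *TXNIP*, which encodes a thioredoxin inhibitor, had 9.44 CPM ± 12.2 (SD, n = 5) and 15.4 CPM ± 8.92 (SD, n = 5). These genes were chosen after their values were seen. A transcript of *MATR3*, a nuclear matrix protein gene, had an isoform fraction of 0.103 in MII and 0.157 in ‘damaged’ oocytes with an FDR of 0.00191 in the DEXSeq model, but a dIF of 0.0549 was below the threshold.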
